A study of Mus musculus with 4 samples.

Results

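Glutathione transferases and UDP glucuronosyltransferases are the 2 main enzyme families with which hepatocytes conjugate drugs, hormones and bile pigments before export. They were taken here as all genes whose symbol begins with Gst followed by a class letter (a, k, m, o, p, t or z) and a digit, with Mgst, or with Ugt1, Ugt2 or Ugt3, and that had a probe-set row annotated with that symbol alone. The rule gave 32 genes of the 19938 measured, 22 glutathione transferases and 10 UDP glucuronosyltransferases, on 33 rows. No Ugt1 gene was among them, and 10 further rows that carry several symbols, family members among them, were not used.

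The arrays measured liver messenger RNA of mice aged 8 weeks and labelled male. There were 4 arrays, 1 for each of 4 genotypes: loss of both the growth hormone receptor and MDR2 (double-null), loss of the growth hormone receptor (GHR-null), loss of MDR2 (MDR2-null), and wild type. MDR2, encoded by Abcb4, moves phosphatidylcholine into bile, and its loss causes cholestatic liver injury. Each array held RNA pooled from 3 livers of 1 genotype, so the spread between animals is not measured, and no source used here gives the strain or how the alleles were made. The series asks whether growth hormone resistance worsens cholestatic fibrosis.

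Glutathione transferases attach the tripeptide glutathione to electrophiles and to products of lipid peroxidation. The soluble enzymes form classes named alpha, kappa, mu, omega, pi, theta and zeta, and the Mgst enzymes sit in membranes. UDP glucuronosyltransferases of the endoplasmic reticulum attach a sugar from a UDP-sugar donor to steroids, bile acids, bilirubin and drugs. In rodent liver several members of both families are known to differ between the sexes, a difference that follows the sex-specific pattern of growth hormone secretion.

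Over all rows with 1 symbol, the middle intensity was 105 in the double-null, 97 in the GHR-null, 102 in the MDR2-null and 94 in the wild-type pool. Values correlated between arrays at r of 0.970 to 0.988, and precision is limited by having 4 arrays. Xist, the RNA of the inactive X chromosome in female cells, was 17 in the double-null, 1400 in the GHR-null, 18 in the MDR2-null and 16 in the wild-type pool, although every pool carries a male label. In every pool 3 genes of the Y chromosome (Uty, Kdm5d and Eif2s3y) read between 212 and 951. The GHR-null pool thus stood apart, with RNA typical of female cells (Xist) beside RNA of the Y chromosome. Whether its livers came from both sexes was not tested. Of the 5 pairwise contrasts the GHR-null pool enters double-null against GHR-null and GHR-null against wild type. Ghr was 935 in double-null and 1395 in GHR-null liver, against 4485 in MDR2-null and 4944 in wild-type liver. Abcb4 was 689 in the double-null and 663 in the MDR2-null pool, against 1346 in the GHR-null and 1120 in the wild-type pool. Whether these probes lie inside the deleted sequence was not tested, so the levels are no full check of the genotypes. Hepatocyte identity was clear, with 23 of 23 measured hepatocyte markers at or above an intensity of 100 in every pool and a summed intensity of 196332 in the double-null, 200328 in the GHR-null, 201338 in the MDR2-null and 208914 in the wild-type pool.

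Pairwise values below are log2 differences between single arrays or the matching folds, with no replicate and no p-value. Counts took in a gene if its brighter array of the pair reached an intensity of 100, about the middle of the rows with 1 symbol. Of the 32 genes, 29 reached that level in at least 1 pool. Gsto2 (33 to 41), Gstt4 (36 to 41) and Mgst2 (32 to 56) did not. A yardstick for a single difference is the spread of non-additivity (the difference with GHR loss without MDR2 minus the same with MDR2), whose robust SD over 10764 genes corresponds to 0.23 (log2) for 1 pairwise difference. That spread also holds real non-additivity and is no limit for a given gene.

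**Figure D1:**
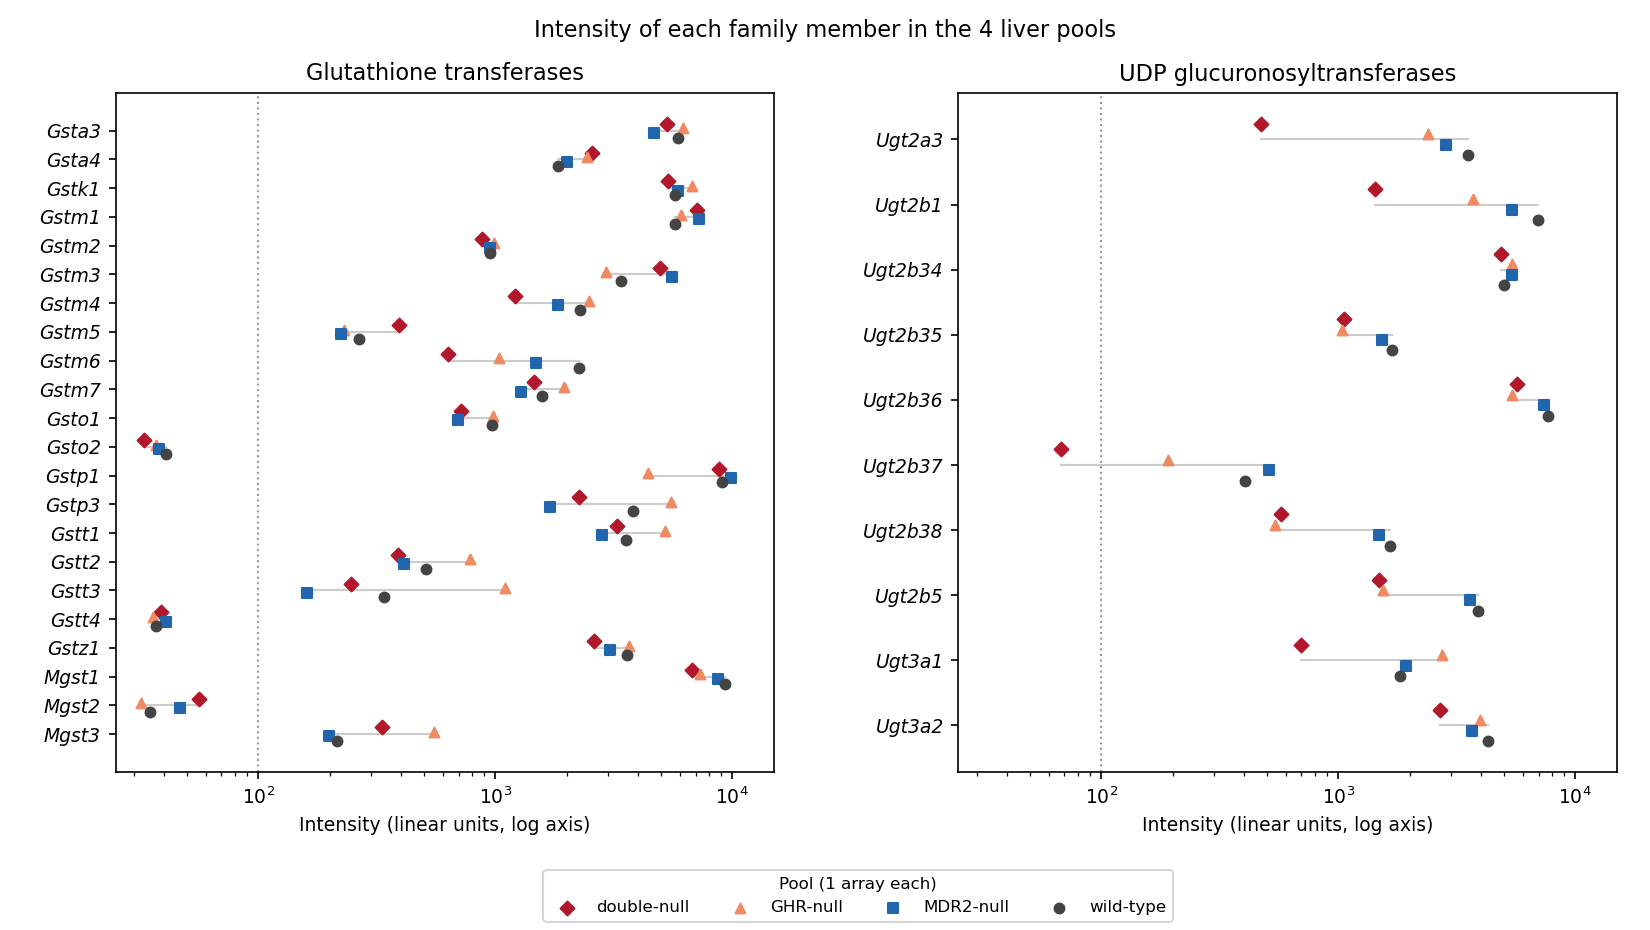
Intensity (linear units on a log axis) of the 22 glutathione transferases and 10 UDP glucuronosyltransferases in the double-null, GHR-null, MDR2-null and wild-type pools, 1 point per array, with the grey line joining the lowest and highest pool and the dotted line at 100. Positions are to be compared within a gene only; the double-null pool was lowest for 7 of the 10 UDP glucuronosyltransferases.

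Most UDP glucuronosyltransferases read lower without the growth hormone receptor: all 10 in double-null relative to MDR2-null liver, and 8 of 10 in GHR-null relative to wild-type liver, Ugt2b34 and Ugt3a1 being the exceptions. The double-null pool was lowest for 7 of the 10, where it was lowest for 28.7% of all genes with 1 lowest pool. The wild-type pool was highest for 7 of the 10, where it was highest for 17.3% of all genes with 1 highest pool. For double-null against MDR2-null liver 6 of 10 were at least 1.5-fold lower and none higher by that much, where 3.89% of all 10524 genes compared were lower and 7.17% higher. All 10 had differences below 0, and their median was -1.32 (log2) against 0.06 over all genes compared. Comparing GHR-null with wild-type liver, 5 of 10 were lower and none higher, where 2.48% of all genes were lower and 4.26% higher. The median there was -0.63 against 0.10 over all genes. Xist at 1400 moved with this contrast and its part was not tested, while the contrast of double-null with MDR2-null had Xist at 17 and 18.

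Loss of MDR2 alone left this family close to wild type. In MDR2-null relative to wild-type liver none of 10 was 1.5-fold apart in either direction (3.59% of all genes were lower and 6.11% higher), with differences between -0.36 and 0.33 and a median of -0.13. For double-null against GHR-null liver, by contrast, 4 of 10 were at least 1.5-fold lower and none higher, where 9.94% of all genes were lower and 9.99% higher. That contrast sets Xist at 17 against Xist at 1400, and the part of this difference was not tested. Comparing double-null with wild-type liver, 8 of 10 were lower and none higher, where 7.6% of all genes were lower and 13.7% higher.

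With a 2-fold threshold the UDP glucuronosyltransferases lower in double-null liver were 6 of 10 against MDR2-null (1.56% of all genes were lower and 2.31% higher), 4 against GHR-null (3.11% lower, 4.72% higher) and 6 against wild type (2.98% lower, 6.88% higher). In GHR-null liver 3 were lower than wild type (0.985% lower, 1.06% higher), and in MDR2-null liver none was (0.76% lower, 2.35% higher). None was 2-fold higher in any of these contrasts.

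The Ugt2 genes measured, which conjugate steroids and bile acids in mammals, lie side by side on chromosome 5 in the RefSeq annotation of GRCm38.p6, in the order Ugt2b34, Ugt2b1, Ugt2b35, Ugt2b36, Ugt2b5, Ugt2b37, Ugt2a3 and Ugt2b38. RefSeq promoter windows (250 bases before to 50 after the gene start) were compared, because these neighbours differed in how much they changed. Of 28 pairs of windows 7 aligned over more than 100 bases, and the other 21 aligned over at most 30. The alignment left end gaps free, so a short one does not show that 2 windows are unlike. Ugt2b35, for example, aligned with Ugt2b37 over 261 bases but with Ugt2b38 over 30. The windows of Ugt2b37, Ugt2b38 and Ugt2b5 were 82.3% to 90.7% identical to each other. These 3 UDP glucuronosyltransferases were furthest below wild type in GHR-null liver, the pool with Xist at 1400. That was not so in double-null relative to MDR2-null liver. There Ugt2a3 (-2.59, log2), Ugt2b1 (-1.92) and Ugt3a1 (-1.46) were below Ugt2b38 (-1.37) and Ugt2b5 (-1.28). The Ugt2a3 and Ugt2b1 windows aligned with that of Ugt2b37 over 1 and 2 bases. Ugt2b35, 1.63-fold lower in GHR-null than in wild-type liver, matched Ugt2b37 at 65.7% of bases and is not shown. Ugt2b36, which was within 1.5-fold in every contrast, matched Ugt2b38 at 67.3% of bases. The windows of Ugt2b37, Ugt2b38, Ugt2b5 and Ugt2b36 are shown, Ugt2b37 as the gene with the largest difference in the subfamily. The other 3 were chosen after their values were seen. They lie on the minus strand at chr5:87254739-87255038 (Ugt2b37), chr5:87424154-87424453 (Ugt2b38), chr5:87140291-87140590 (Ugt2b5) and chr5:87092506-87092805 (Ugt2b36), build GRCm38.p6, and are written 5′ to 3′ with capitals at bases that do not match the Ugt2b37 window in the pairwise alignment, or lie beyond it.
Ugt2b37: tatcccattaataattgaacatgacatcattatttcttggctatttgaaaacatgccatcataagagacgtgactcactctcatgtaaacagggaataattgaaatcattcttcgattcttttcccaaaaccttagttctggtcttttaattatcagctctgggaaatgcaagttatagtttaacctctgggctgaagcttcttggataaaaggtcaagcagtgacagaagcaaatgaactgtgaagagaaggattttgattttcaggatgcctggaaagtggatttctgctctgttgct
Ugt2b38: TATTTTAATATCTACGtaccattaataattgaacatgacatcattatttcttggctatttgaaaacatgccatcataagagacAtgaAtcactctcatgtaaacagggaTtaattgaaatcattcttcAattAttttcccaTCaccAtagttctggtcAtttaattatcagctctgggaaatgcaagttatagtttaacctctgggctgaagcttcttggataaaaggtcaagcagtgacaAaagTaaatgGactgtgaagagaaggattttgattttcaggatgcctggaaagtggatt
Ugt2b5: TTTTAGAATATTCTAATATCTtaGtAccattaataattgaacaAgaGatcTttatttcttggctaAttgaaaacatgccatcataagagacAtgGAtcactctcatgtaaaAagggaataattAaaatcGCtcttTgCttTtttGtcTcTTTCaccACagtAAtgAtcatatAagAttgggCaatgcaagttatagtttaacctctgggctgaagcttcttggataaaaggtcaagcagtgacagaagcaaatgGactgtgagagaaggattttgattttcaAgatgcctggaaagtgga
Ugt2b36: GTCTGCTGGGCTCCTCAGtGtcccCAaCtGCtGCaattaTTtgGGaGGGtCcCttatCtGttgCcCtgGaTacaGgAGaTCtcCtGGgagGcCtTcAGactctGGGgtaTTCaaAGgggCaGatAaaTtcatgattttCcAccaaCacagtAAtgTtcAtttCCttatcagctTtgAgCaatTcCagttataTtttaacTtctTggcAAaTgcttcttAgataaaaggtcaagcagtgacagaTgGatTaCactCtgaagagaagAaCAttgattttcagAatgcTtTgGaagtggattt

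In the alignment 28 bases of the Ugt2b38 window, 53 of the Ugt2b5 window and 99 of the Ugt2b36 window did not match Ugt2b37. The similarity of these genes also means that array probes may be shared or cross-hybridise between them, which was not tested here.

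Ugt2b5 and Ugt2b38 followed the receptor and not MDR2. Ugt2b38 was 574 in double-null and 541 in GHR-null liver, against 1488 in MDR2-null and 1652 in wild-type liver. Ugt2b5 was 1492 in double-null and 1541 in GHR-null liver, against 3612 in MDR2-null and 3870 in wild-type liver. The 2 pools without the receptor lay far below the 2 with it for either gene, and within each such pair the values differed by at most 1.11-fold. Ugt2b38 was thus 2.59-fold lower in double-null than in MDR2-null liver, and 3.05-fold lower in GHR-null than in wild-type liver. For Ugt2b5 the matching folds were 2.42 and 2.51.

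Ugt2b37 and Ugt2a3 were lowest by far in the double-null pool. Ugt2b37 was 68 in the double-null, 192 in the GHR-null, 512 in the MDR2-null and 406 in the wild-type pool. Since 68 lies under 100 and was not shown to be above background, no fold or difference of Ugt2b37 that uses the double-null pool is exact, the 7.53-fold difference from MDR2-null liver included. Ugt2a3, whose human counterpart conjugates bile acids, was 473 in the double-null, 2397 in the GHR-null, 2844 in the MDR2-null and 3523 in the wild-type pool. For Ugt2a3 the single losses were 1.47-fold (GHR-null) and 1.24-fold (MDR2-null) below wild type, while the double-null pool was 7.45-fold below it and 6.01-fold below MDR2-null liver. The promoter windows of Ugt2b37 and Ugt2b38, the most alike of all pairs as aligned, thus belong to genes that differed in this respect. Between the double-null pool and the GHR-null pool (Xist at 1400) Ugt2b37 was 2.82-fold lower, which is inexact, and Ugt2b38 1.06-fold higher.

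Ugt2b1 showed an intermediate order. It was 1434 in the double-null, 3697 in the GHR-null, 5422 in the MDR2-null and 6966 in the wild-type pool. It was 3.78-fold lower in double-null than in MDR2-null liver and 1.88-fold lower in GHR-null than in wild-type liver. Ugt2b35 differed less, at 1059 in double-null and 1036 in GHR-null liver, against 1523 in MDR2-null and 1693 in wild-type liver. Ugt2b36 (5402 to 7638) was also lower in both receptor-null pools than in both others but stayed within 1.5-fold. Ugt2b34, the first gene of the row, varied from 4854 to 5410 over the 4 pools.

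The Ugt3 genes lie next to each other on chromosome 15. In humans UGT3A1 uses UDP-N-acetylglucosamine and UGT3A2 uses UDP-glucose and UDP-xylose in place of UDP-glucuronate. Ugt3a1 was 699 in the double-null, 2735 in the GHR-null, 1926 in the MDR2-null and 1825 in the wild-type pool. It was thus lowest in the double-null pool but highest in the GHR-null pool, 2.76-fold lower in double-null than in MDR2-null liver and 0.58 (log2) higher in GHR-null than in wild-type liver, just under 1.5-fold. Its neighbour Ugt3a2 was 2688 in the double-null, 3958 in the GHR-null, 3668 in the MDR2-null and 4291 in the wild-type pool, a difference of 1.60-fold between double-null and wild type.

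**Figure D2:**
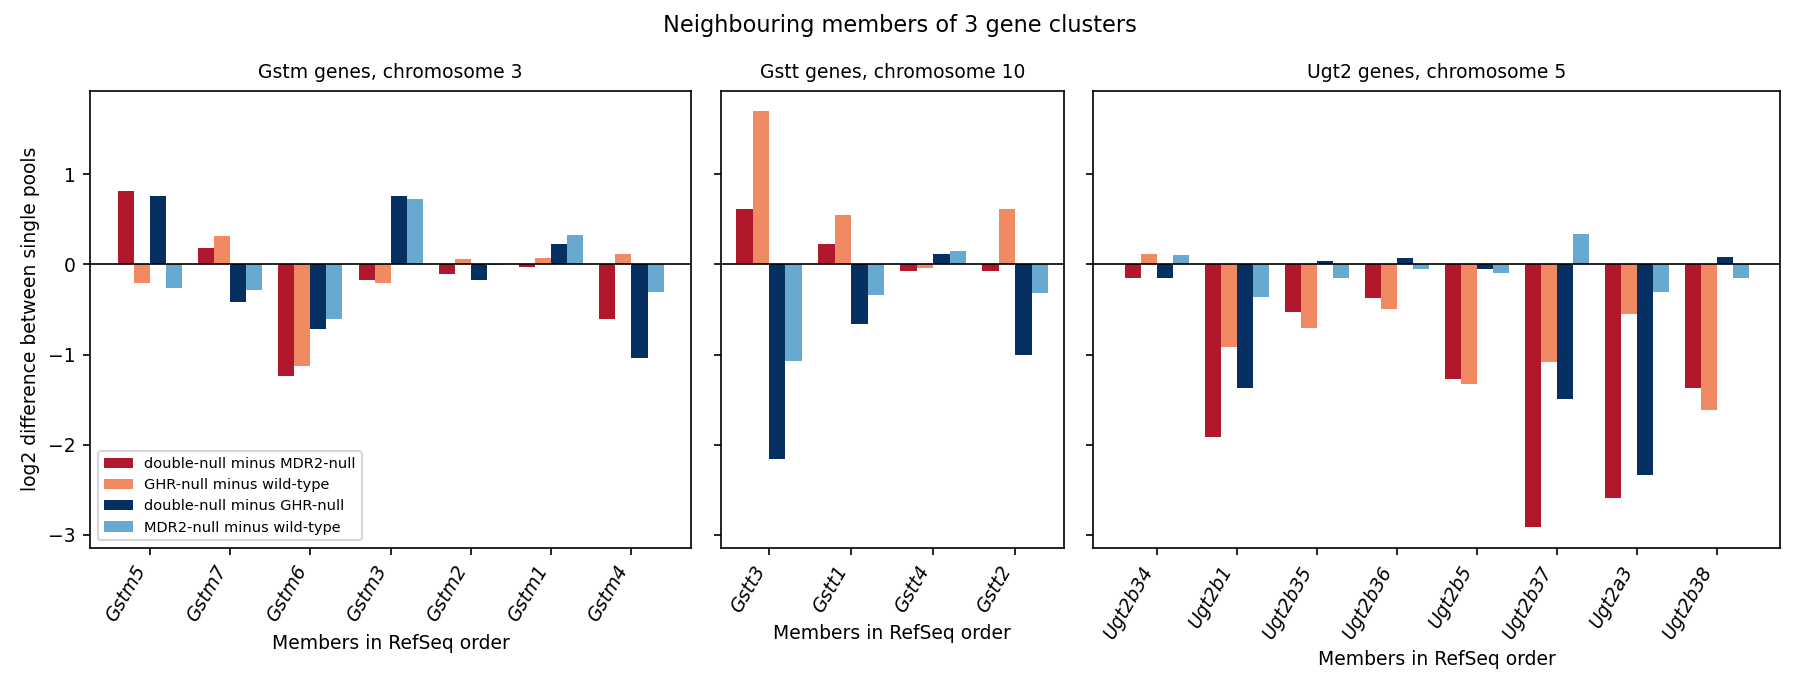
Bars give the log2 difference between single pools for members of 3 gene clusters (Gstm on chromosome 3, Gstt on chromosome 10, Ugt2 on chromosome 5), in the order of the RefSeq annotation. The red and orange bars are the difference with GHR loss without and with MDR2, the dark and light blue bars the difference with MDR2 loss without and with GHR; in the Ugt2 panel Ugt2b5 and Ugt2b38 have blue bars near 0, and Ugt2b37 and Ugt2a3 have long dark blue bars, -2.34 for Ugt2a3.

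The glutathione transferases did not shift together. In double-null relative to MDR2-null liver 3 of the 19 at the level were at least 1.5-fold higher and 2 lower, where 7.17% and 3.89% of all genes were. The median over all 22 measured, the 3 below the level included, was -0.05, against 0.06 over all genes at the level. For GHR-null against wild-type liver 3 were higher and 2 lower, where 4.26% and 2.48% of all genes were, and the median of 0.06 over all 22 turned to -0.06 after median centring of the arrays. The GHR-null pool, in which Xist was 1400, was the highest for 12 of the 19 members at the level, where it was the highest for 38.0% of all genes with 1 highest pool. Comparing double-null with GHR-null liver, 3 were higher and 7 lower, where 9.99% of all genes were higher and 9.94% lower. In MDR2-null relative to wild-type liver 1 was higher and 3 lower, where 6.11% and 3.59% of all genes were. For double-null against wild-type liver 1 was higher and 3 lower, where 13.7% and 7.6% of all genes were.

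**Figure D3:**
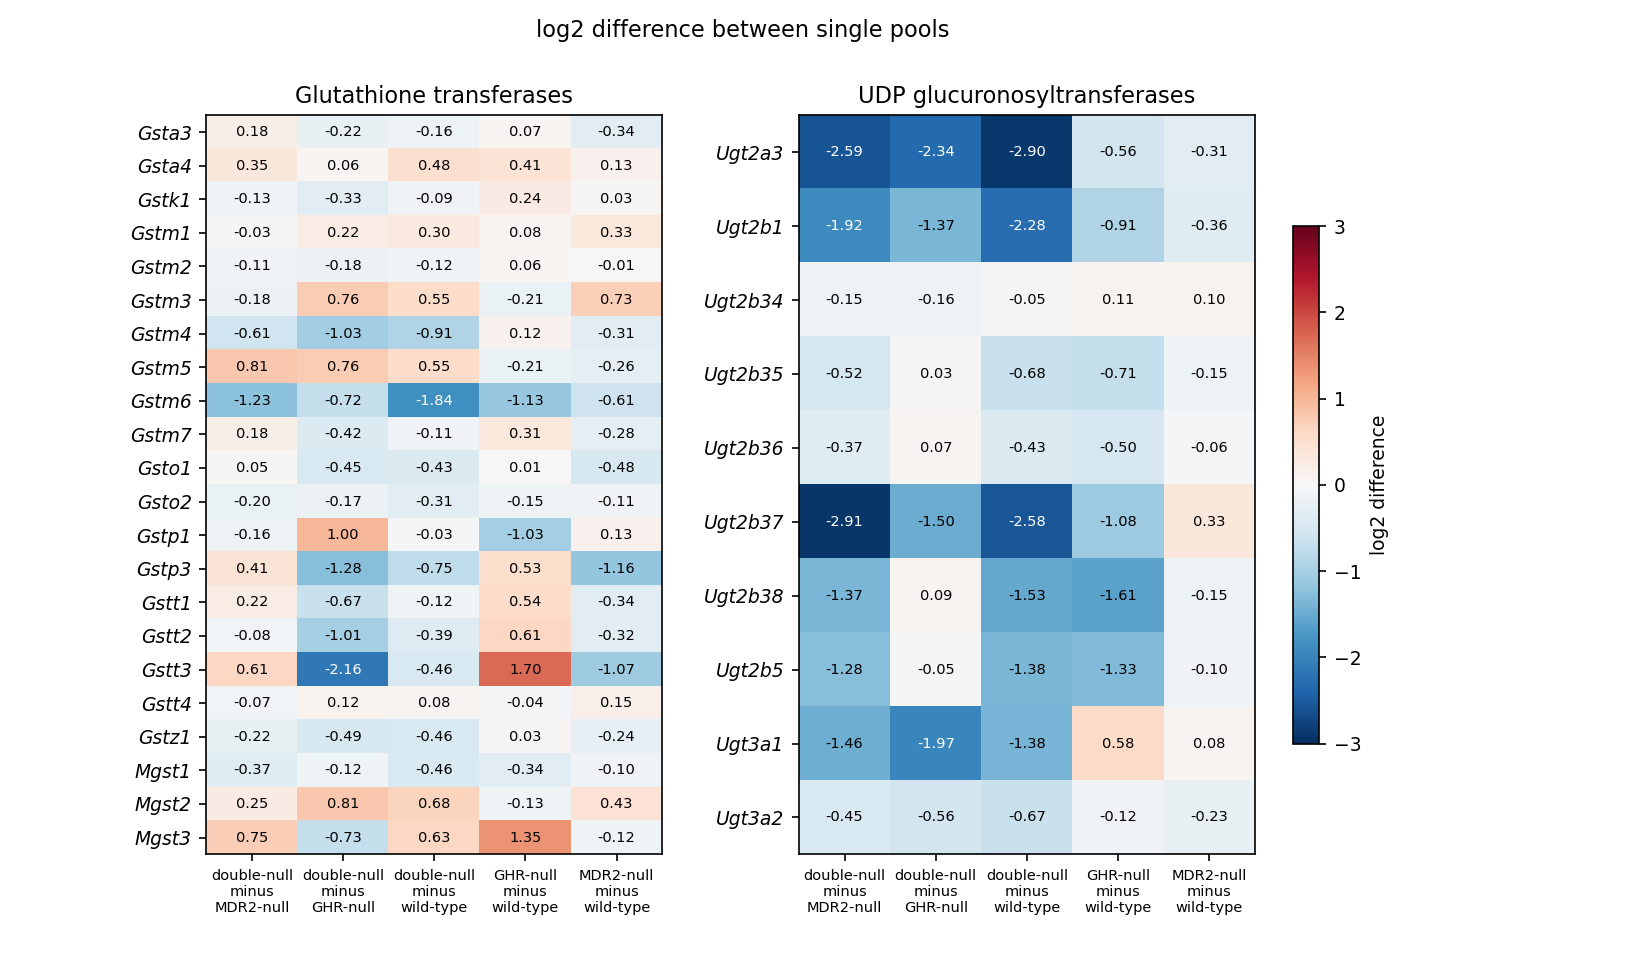
Heat map of log2 differences between single pools for every member, with the value printed in each cell, red for higher and blue for lower in the first-named pool. The UDP glucuronosyltransferases are blue in the contrasts that set a pool without GHR against a pool with it, apart from Ugt2b34 and Ugt3a1 in GHR-null minus wild-type, while the glutathione transferases hold both colours.

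The theta class, which acts on small halogenated compounds and lies in a row on chromosome 10 as Gstt3, Gstt1, Gstt4 and Gstt2, was highest in the GHR-null pool in its 3 members at the level. Gstt3 was 246 in the double-null, 1096 in the GHR-null, 161 in the MDR2-null and 338 in the wild-type pool. The pools without MDR2 were both below those with it. Gstt3 was 4.46-fold lower in double-null than in GHR-null liver, 2.10-fold lower in MDR2-null than in wild-type liver, and 3.24-fold higher in GHR-null than in wild-type liver. Gstt2 was 390 in the double-null, 783 in the GHR-null, 411 in the MDR2-null and 512 in the wild-type pool. Gstt1 was 3277 in the double-null, 5200 in the GHR-null, 2810 in the MDR2-null and 3565 in the wild-type pool. Set against MDR2-null liver, a contrast without the pool that holds Xist, double-null liver had Gstt3 1.53-fold and Gstt1 1.17-fold higher and Gstt2 1.05-fold lower.

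The pi class split. Gstp1, the main pi enzyme of mouse liver and known to be higher in males, was 8804 in the double-null, 4415 in the GHR-null, 9849 in the MDR2-null and 9019 in the wild-type pool. The GHR-null pool alone was low, 2.04-fold below wild type, while the double-null pool was 1.12-fold below the MDR2-null pool. The low pool is the pool with Xist at 1400, whose part in the difference was not tested. Gstp2, a close copy that lies between Gstp1 and Gstp3 in the RefSeq annotation, had no row of its own, and whether the Gstp1 probes tell the copies apart was not tested. Gstp3 was 2257 in the double-null, 5498 in the GHR-null, 1703 in the MDR2-null and 3798 in the wild-type pool. Gstp3 was lower in the pools without MDR2, by 2.44-fold in double-null relative to GHR-null liver and by 2.23-fold in MDR2-null relative to wild-type liver. In double-null relative to MDR2-null liver it read 0.41 (log2) higher.

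Of the mu class, which lies in a row on chromosome 3, 4 of 7 members were 1.5-fold apart in some contrast. Gstm6 was lower with either loss and lowest with both, at 631 in the double-null, 1038 in the GHR-null, 1483 in the MDR2-null and 2264 in the wild-type pool. It was 2.35-fold lower in double-null than in MDR2-null liver and 2.18-fold lower in GHR-null than in wild-type liver. With MDR2 loss it was 1.64-fold lower where GHR was absent and 1.53-fold lower where it was present. Gstm4 was 1210 in the double-null, 2477 in the GHR-null, 1841 in the MDR2-null and 2280 in the wild-type pool, so that the double-null pool stood below the other 3.

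Gstm3 and Gstm5 were the mu members at least 1.5-fold higher in some pool without MDR2. Gstm3 was 4939 in the double-null and 5584 in the MDR2-null pool, against 2918 in the GHR-null and 3376 in the wild-type pool. Its second row, with a lower mean, read 4003 in the double-null and 4182 in the MDR2-null pool, against 1475 in the GHR-null and 1282 in the wild-type pool. On either row the pools without MDR2 were above those with it, but by different amounts: the MDR2-null pool was 1.65-fold above wild type on the first row and 3.26-fold on the second. Gstm5 was 392 in the double-null, 231 in the GHR-null, 223 in the MDR2-null and 267 in the wild-type pool, with the double-null pool above the other 3. Gstm1, Gstm2 and Gstm7 stayed within 1.5-fold.

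Markers of other cell types moved with these contrasts. Cholangiocyte markers (17 of 20 measured) summed to 6652 in the double-null, 1978 in the GHR-null, 3030 in the MDR2-null and 1748 in the wild-type pool, with 16, 6, 13 and 4 of them at or above 100 in the same order of pools. Kupffer cell and macrophage markers (22 of 22 measured) summed to 20179 in the double-null, 9613 in the GHR-null, 14933 in the MDR2-null and 6878 in the wild-type pool. Their part in the Gstm3 and Gstm5 differences was not tested. In whole liver, fewer cells of a type and less RNA per cell cannot be told apart, and this holds for the lower UDP glucuronosyltransferases too. Hepatocyte markers in double-null relative to MDR2-null liver had a median of -0.05, with 2 of 23 at least 1.5-fold lower and none higher, where 3.89% of all genes were lower. Some periportal hepatocyte markers were lower in the same contrasts as the UDP glucuronosyltransferases. In double-null relative to MDR2-null liver 5 of 14 were lower and 1 higher (3.89% and 7.17% of all genes), with a median of -0.13. In GHR-null relative to wild-type liver 5 were lower and none higher (2.48% of all genes were lower), with a median of -0.08. Of 15 pericentral markers 2 were lower and 2 higher in the first contrast, and none lower and 3 higher in the second. The periportal markers summed to 25788 in the double-null, 38685 in the GHR-null, 42569 in the MDR2-null and 45204 in the wild-type pool. The pericentral markers summed to 39038, 52297, 45855 and 47121 in the same order of pools. The periportal sum includes Cyp2f2, a periportal cytochrome P450, which was 631 in the double-null, 8133 in the GHR-null, 9594 in the MDR2-null and 11138 in the wild-type pool. It also includes Igf1, which was 374 in the double-null, 1546 in the GHR-null, 3766 in the MDR2-null and 3951 in the wild-type pool. Igf1 is thus among the lower periportal markers in both contrasts. Stellate cell and myofibroblast markers (20 of 20 measured) summed to 14382 in the double-null, 10842 in the GHR-null, 11362 in the MDR2-null and 8823 in the wild-type pool. The part of the periportal, pericentral and stellate cell lists in the results for both enzyme families was not tested.

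Among the membrane enzymes Mgst3, which reduces lipid peroxides, was 332 in double-null and 549 in GHR-null liver, against 198 in MDR2-null and 215 in wild-type liver. The pools without the receptor were higher in each background, by 1.68-fold without MDR2 and 2.55-fold with it. Mgst1, the abundant microsomal form known to respond to oxidative stress, ranged from 6734 to 9294. The remaining members were steady, with no pairwise difference above 0.50 (log2) among the 11 members that reached the level and never passed 1.5-fold. These were Gsta3, which in mice detoxifies aflatoxin, Gsta4, which conjugates 4-hydroxynonenal, the kappa enzyme Gstk1, Gstm1, Gstm2, Gstm7, the omega enzyme Gsto1, Gstz1, which acts in tyrosine breakdown, Mgst1, Ugt2b34 and Ugt2b36. Gsta4 was 2550 in double-null and 2440 in GHR-null liver, against 2006 in MDR2-null and 1833 in wild-type liver.

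The same loss was then compared between the 2 backgrounds, which share no array. Across the 29 members at the level, the GHR-loss differences correlated at a Pearson r of 0.65, with 20 of 29 of the same sign, against 0.46 and 60.6% over the 10764 genes. The MDR2-loss differences correlated at 0.49, with 21 of 29 of the same sign, against 0.65 and 69.5% over all genes. Within families the GHR-loss r was 0.68 over 19 glutathione transferases and 0.35 over 10 UDP glucuronosyltransferases, 8 of which had the same sign. For MDR2 loss the glutathione transferases had an r of 0.79 over 19 genes and the UDP glucuronosyltransferases an r of 0.00 over 10. These are correlations across genes that share arrays and normalization and are not independent replicates. Non-additivity of at least 1.5-fold below the sum of the single losses was seen in 8 of 29 members (6.71% of all genes) and above it in 2 (5.29%). Every one of these values uses the GHR-null pool. Ugt3a1 (-2.05), Ugt2a3 (-2.03) and Gstt3 (-1.09) were among the lowest in log2 terms, as was Ugt2b37 (-1.83, inexact because of its double-null value), and Gstm5 (1.02) and Gstp1 (0.87) were the 2 above. With 4 arrays and 4 genotypes no test of non-additivity is possible.

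**Figure D4:**
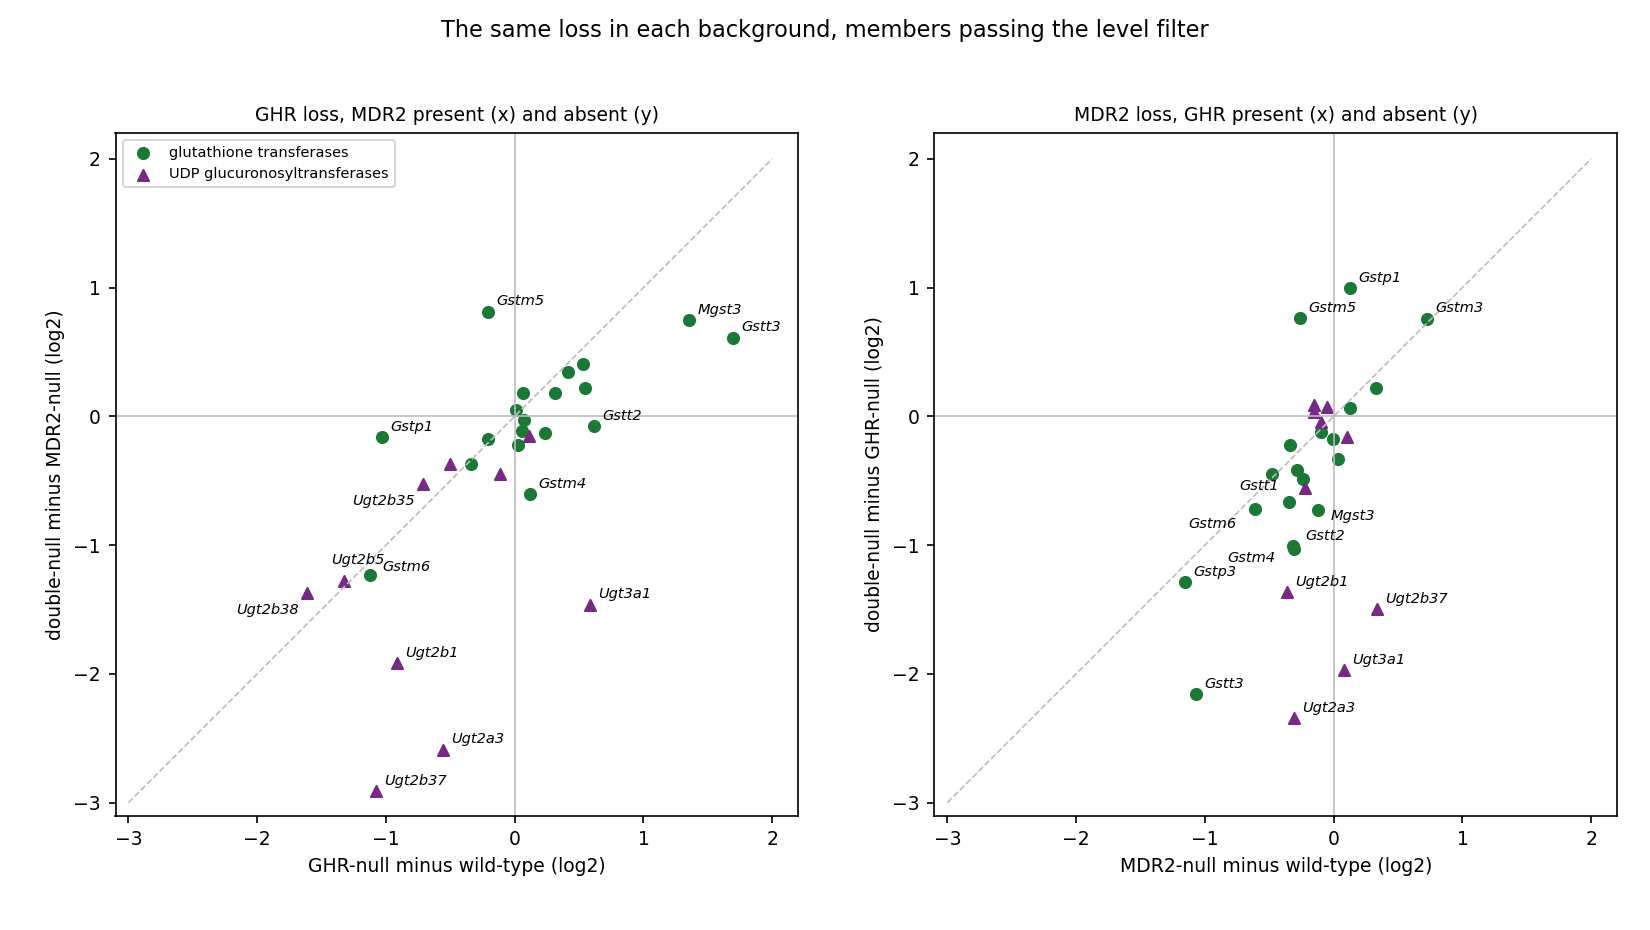
Each point is a member at the level; the left panel sets the log2 difference with GHR loss without MDR2 (y) against that with MDR2 (x), the right panel the difference with MDR2 loss without GHR (y) against that with GHR (x), and the dashed line marks equal differences. Ugt2b5, Ugt2b38 and Gstm6 lie near the dashed line in the left panel, and Ugt2a3, Ugt2b37, Ugt3a1 and Ugt2b1 lie well below it in both panels.

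The one test the design allows was an additive limma model of the 2 losses on 4 arrays, which assumes that a loss has the same effect in both backgrounds. Its 1 residual degree of freedom is the non-additivity of a gene. The SE and p therefore give no separate measure of the spread between animals or arrays. With Benjamini-Hochberg adjustment over 10764 genes at 0.05, GHR loss lowered 2 of 29 members tested (0.316% of all genes were called lower) and raised none (0.204%). Without adjustment 10 were lower and 4 higher at p under 0.05, where 13.1% of all genes passed in either direction. Ugt2b38 fell by 1.49 ± 0.15 (log2, SE; limma adjusted p = 0.028) and Ugt2b5 fell by 1.30 ± 0.14 (limma adjusted p = 0.037), each lower in both receptor-null pools than in both others. Over 8 other settings the adjusted p ranged from 0.019 to 0.518 for Ugt2b38 and likewise from 0.019 to 0.518 for Ugt2b5, and 6 and 5 of the settings kept the call. Gstm6, at -1.18 ± 0.14, missed the threshold (limma adjusted p = 0.050, just above it), and Ugt2b37 and Ugt2a3 missed it as well, with limma adjusted p = 0.187 and 0.282. MDR2 loss lowered 2 of 29 members (0.762% of all genes) and raised none (2.99%), with 10 lower and 1 higher at an unadjusted p under 0.05 (23.6% of all genes in either direction). Gstp3 fell by 1.22 ± 0.14 (limma adjusted p = 0.027, range 0.018 to 0.327 over 8 settings, 6 of which kept the call). Gstt3 fell by 1.61 ± 0.27 (limma adjusted p = 0.046, range 0.033 to 0.327), a call that 2 of 8 settings kept. Gstm3 was 0.74 ± 0.14 higher on its first row (limma adjusted p = 0.053). Its second row, not in this fit, read 1.71 higher in MDR2-null than in wild-type liver and 1.44 higher in double-null than in GHR-null liver. All of these limma estimates use the GHR-null pool with Xist at 1400. Without that pool the model has no residual degrees of freedom, so no test without it can be had.

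Genes that supply and remove the substrates of these enzymes were described from lists. Of 13 genes of UDP-glucuronate supply and glucuronide cleavage at the level, none was 1.5-fold apart in double-null relative to MDR2-null liver, where 7.17% of all genes were higher and 3.89% lower, so that the count is near the background. Gusb, the lysosomal enzyme that cleaves glucuronides, was 422 in the double-null, 258 in the GHR-null, 305 in the MDR2-null and 248 in the wild-type pool. Pgm2, a phosphoglucomutase, was 360 in the double-null, 198 in the GHR-null, 286 in the MDR2-null and 165 in the wild-type pool. Of 21 measured genes of glutathione synthesis, recycling and breakdown, 2 were higher and 4 lower in double-null relative to MDR2-null liver, 18 being at the level, where 7.17% of all genes were higher and 3.89% lower. The glyoxalases that use glutathione to clear methylglyoxal were among the lower ones: Glo1 was 1553 in the double-null, 2839 in the GHR-null, 2634 in the MDR2-null and 3859 in the wild-type pool. Hagh followed with 1238 in the double-null, 2552 in the GHR-null, 2178 in the MDR2-null and 2784 in the wild-type pool.

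Of the export pumps for conjugates, 3 of 12 were at least 1.5-fold higher in double-null than in MDR2-null liver (7.17% of all genes), with none lower. Against GHR-null liver 4 were higher and 2 lower (9.99% and 9.94% of all genes). Comparing double-null with wild-type liver, 7 of 12 passed 1.5-fold upward and none downward, with a median of 0.68, where 13.7% of all genes were higher. Abcb1a, a multidrug pump, was 503 in the double-null, 341 in the GHR-null, 152 in the MDR2-null and 102 in the wild-type pool. Abcc4, which exports conjugates back to blood, was 265 in double-null and 285 in GHR-null liver, against 115 in MDR2-null and 96 in wild-type liver.

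Of the receptors and factors known to control these families, Nfe2l2 (NRF2, which drives glutathione transferase genes under oxidative stress) was 2157 in the double-null, 1382 in the GHR-null, 1883 in the MDR2-null and 912 in the wild-type pool. Of 18 NRF2 targets outside both families at the level, 5 were higher and 4 lower in double-null relative to wild-type liver, where 13.7% of all genes were higher and 7.6% lower, and their median was 0.01. Nqo1, also an NRF2 target and listed with the AHR targets, was 216 in double-null and 228 in GHR-null liver, against 158 in MDR2-null and 132 in wild-type liver. In double-null relative to MDR2-null liver, where 7.17% of all genes were higher and 3.89% lower, 3 of 18 CAR and PXR targets at the level were higher and 2 lower. Of 4 AHR targets at the level 1 was higher and none lower, and of 26 regulators 2 were higher and 2 lower. Set against GHR-null liver, 3 of 19 CAR and PXR targets were higher and 8 lower in double-null liver (9.99% and 9.94% of all genes). In GHR-null relative to wild-type liver 5 were higher and 1 lower (4.26% and 2.48%). Both contrasts use the pool with Xist at 1400, whose part was not tested. Cyp2b9 was 1162 in the double-null, 5952 in the GHR-null, 51 in the MDR2-null and 71 in the wild-type pool. Cyp2b10 was 136, 1677, 364 and 472 in the same order.

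Promoter windows were found in RefSeq for 29 of the 32 genes. Some genes had several, which gave 38 windows. The core of the antioxidant response element (TGACNNNGC, either strand) occurred in 4 of the 38 windows, in 4 genes. It was held by 12.4% of all 32817 windows of that length. The AHR core (GCGTG) occurred in 6 of the 38 windows, in 5 genes (32.4% of all windows). A STAT5 type site (TTCNNNGAA) occurred in 3 of the 38, in 3 genes (8.29% of all windows). None of the 9 UDP glucuronosyltransferases with a window held any of the 3. A match is a description of letters, and the absence of one says nothing beyond this window.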

How the data were processed

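The deposited table gives an intensity for each probe set on each array. RMA in Affymetrix Expression Console 1.1 was used, per the submitters' processing notes. The deposited intensity values are whole numbers from 6 to 22355, so the scale is linear, log2 was taken here and low values are coarse. Of 35556 rows 21789 carry exactly 1 symbol in GEO's platform annotation; a gene with several rows took the row with the highest mean. All 32 members matched RefSeq by gene identifier. No replicate arrays exist, so pairwise differences between pools have no test. Additive factors were fitted with limma 3.58.1 (R 4.3.3, with 1 residual and 4.34 prior degrees of freedom) over genes at an intensity of 100 or more in some array. The fit was tested on data simulated from the same additive model, which cannot check its assumption of additivity. Promoter windows are from RefSeq, GRCm38.p6, aligned with Biopython. Members, gene lists, tests and alternatives were chosen with earlier results of these data known. All members may be named; from each list up to 4 with the largest difference were eligible, and for the printed windows the largest of a subfamily, with exceptions marked. Alternatives were other level filters, cyclic loess, median or hepatocyte centring, the mean of all rows, a 2-fold threshold, and limma with trend or robust settings. The second row of Gstm3 was added after seeing the data.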

Additional observations from a re-analysis of the deposited data

Results flagged for a closer look

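Ugt3a1 moved in opposite directions with loss of GHR in the 2 backgrounds. It was 1.46 (log2) lower in double-null than in MDR2-null liver. In GHR-null liver, the pool with Xist at 1400, it was 0.58 higher than in wild-type liver, just under 1.5-fold. The difference of the 2 was thus -2.05.

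With loss of MDR2, Gstm5 was 0.76 higher in double-null than in GHR-null liver and 0.26 lower in MDR2-null than in wild-type liver, a difference of 1.02. Ugt2b37 went the other way, 2.82-fold lower in double-null than in GHR-null liver and 0.33 higher in MDR2-null than in wild-type liver, a difference of -1.83. Its double-null intensity was 68, under the level of 100, which makes these values inexact. The fall of 0.26 in Gstm5 was close to the yardstick of 0.23 for a single difference. The difference was not tested for any of these 3 genes, since each group is 1 pool. For all 3 it uses the GHR-null pool with Xist at 1400, whose part was not tested.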

How the results depend on the processing

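No called pairwise difference of a member changed sign under any other scaling or row choice tried. Only cyclic loess could have changed one for members other than Gstm3. Centring shifted all genes of a contrast alike, by less than a called difference. Row choice could alter only Gstm3, which alone had 2 rows. Median centring moved the all-gene median by -0.12 (log2) for GHR-null against wild type. Hepatocyte centring shifted it by -0.12 in the double-null against wild-type contrast and by -0.10 in the double-null against MDR2-null contrast; changes are relative to these shifts. The lower counts of UDP glucuronosyltransferases moved by more than 1.5 times only for GHR-null against wild type with a 2-fold threshold (3 in place of 5). With that threshold, 0 of 19 glutathione transferases at the level were higher and 1 lower in double-null than in MDR2-null liver (2.31% and 1.56% of all genes). Against GHR-null liver 0 were higher and 4 lower in double-null liver (4.72% and 3.11% of all genes). Against wild type 0 were higher and 1 lower in double-null liver (6.88% and 2.98%), and 0 higher in MDR2-null liver (2.35%). Non-additivity counts among 29 members were 1 above and 5 below. Their 2-fold share over all genes was not computed, so these 2 counts have no background. The single glutathione transferase higher in the double-null against wild type became 2 with cyclic loess, the mean of all rows or no level filter, and 0 with either centring.

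The limma calls were the least stable. Those lower with GHR loss were 0 with cyclic loess or no filter and 1 with the filter at the 75th percentile. Those lower with MDR2 loss were 0 with cyclic loess or no filter, and 1 with either centring, the 75th percentile or robust settings. Those higher with MDR2 loss became 1 with the mean of all rows or with trend. Without a filter many dim genes enter the fit; the cause of the other changes was not tested. Averaging both Gstm3 rows gave 1.22 (log2) for MDR2-null against wild type, and the second row alone 1.71, in place of 0.73. No paired analysis was possible because each genotype is 1 pool. Rounding to whole numbers and the lack of detection calls limit values under 100.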

Other observations

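Relatives of the glutathione transferases outside the named classes were measured for 13 genes, of which 7 reached the level in each contrast. In double-null relative to MDR2-null liver 2 of these passed 1.5-fold upward and none downward, where 7.17% of all genes were higher and 3.89% lower. Alox5ap, which presents arachidonic acid for leukotriene synthesis and belongs to the same membrane superfamily as Mgst2, was 450 in the double-null, 168 in the GHR-null, 298 in the MDR2-null and 141 in the wild-type pool. Clic1, a chloride channel protein with a glutathione transferase fold, was 609 in the double-null, 317 in the GHR-null, 401 in the MDR2-null and 327 in the wild-type pool. Macrophage markers, which summed to 20179 in the double-null and 14933 in the MDR2-null pool, moved with Alox5ap, and their part was not tested.

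Glutathione peroxidases and the thioredoxin system went both ways. For double-null against wild-type liver 4 of 15 at the level were at least 1.5-fold higher and 3 lower, where 13.7% of all genes were higher and 7.6% lower. The secreted peroxidase Gpx3 was 346 in the double-null, 98 in the GHR-null, 138 in the MDR2-null and 101 in the wild-type pool, and the mitochondrial reductase Txnrd2 was 194 in the double-null, 414 in the GHR-null, 229 in the MDR2-null and 294 in the wild-type pool.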
